A study of Homo sapiens with 18 samples.

Results

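The transcriptional response of SKNO-1 to RMC-4550 was measured in 6 of the 18 RNA-seq libraries of the study, 3 from cultures given the vehicle DMSO and 3 from cultures given 500 nM RMC-4550 for 24 h. SKNO-1 is a human acute myeloid leukaemia cell line with the t(8;21) translocation, and the labels give its genotype as KIT N822K, a change in the receptor tyrosine kinase KIT. All 6 SKNO-1 cultures, the vehicle controls included, were grown with GM-CSF at 10 ng/mL, so each value below describes cells that received this cytokine. The study treated 3 leukaemia lines in the same way, and the other 12 libraries enter here only as an alternative fit. SKNO-1 is a single line, so the replicates are repeat cultures of it, labelled as biological replicates, and the p-values measure the spread between these cultures. Genes with at least 1 CPM (counts per 1000000 reads of the scaled library) in at least 3 of the 6 libraries were tested, which kept 14690 of the 40184 genes in the deposited table.

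RMC-4550 holds the phosphatase SHP2, the product of PTPN11, in its closed and inactive form. SHP2 is recruited to activated receptor tyrosine kinases and cytokine receptors through adaptors such as GAB2 and GRB2, and it is needed for full loading of RAS with GTP and for signalling through RAF, MEK and ERK. GM-CSF binds a receptor whose common beta chain is CSF2RB and signals through JAK2 and STAT5 as well as through RAS, and it drives survival and growth of this line.

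The 6 libraries held 19441440 to 19959917 reads each, and 27853 to 28705 genes had a read. Pearson correlations of log2 values between replicates ran from 0.993 to 0.996, and the first principal component, with 79.7% of the variance, separated treated from DMSO libraries. The share of reads in mitochondrially encoded genes was 5.22% to 5.38% in the DMSO libraries and 5.58% to 5.91% in the treated ones, and its part in the results below was not tested. Myeloid markers were present, with a summed level of 9 blast markers (MPO, CD33, KIT and others) of 1203 to 1223 CPM with DMSO and 1315 to 1385 CPM with RMC-4550, except that CD34 had at most 2 reads in any library. The T cell markers CD3D, CD3E, CD3G and CD2, the B cell marker MS4A1, the erythroid and megakaryocyte genes HBA1, HBB and PF4 and the stromal and epithelial genes DCN, CDH5, EPCAM, CDH1 and KRT5 all had 3 reads or fewer in every library. The summed level of the 8 T and NK cell markers was nonetheless 513 to 527 CPM with DMSO and 602 to 632 CPM with RMC-4550, nearly all of it from CD4, which myeloid cells also express.

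After 24 h with RMC-4550, genes of DNA replication, mitosis, DNA repair, ribosome assembly and lipid synthesis were lower, and interferon-stimulated genes, MHC class II genes and surface receptors of monocytes and macrophages were higher. Of the 14690 genes tested, 3577 (24.3%) were called higher and 4878 (33.2%) lower, a call being a limma adjusted p under 0.05. Changes of at least 2-fold were called upward for 575 genes (3.91%) and downward for 463 (3.15%). The excess of rises was in low genes, with 372 up and 151 down under a mean of 5 CPM. From 5 to 50 CPM the counts were 174 up and 253 down, and from 50 CPM 29 up and 59 down. Of all genes tested, 237 had at least 1 CPM in every treated library and in no DMSO library, and 80 the reverse. Such genes are described below as having passed the minimum only through 1 group. Genes that reached 1 CPM in only some libraries of the lower group may also have needed the other group. They are not in these counts. The median log2 change over all genes was -0.05. In bulk RNA a lower level can come from fewer cells of a kind or from less RNA per cell, and these cannot be told apart here. When all 18 libraries of the 3 lines entered 1 fit, 1588 genes were called higher and 2381 lower, and 3966 of the 8455 calls were kept. Genes named below whose call was lost in that fit are given with its adjusted p. That fit pools the spread between replicates over the 3 lines, while the log2 changes stay the same. In earlier results of these data, replicates of the other lines spread several times more than those of SKNO-1. A call lost there is therefore set by a spread that is not that of SKNO-1 alone.

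**Figure D1:**
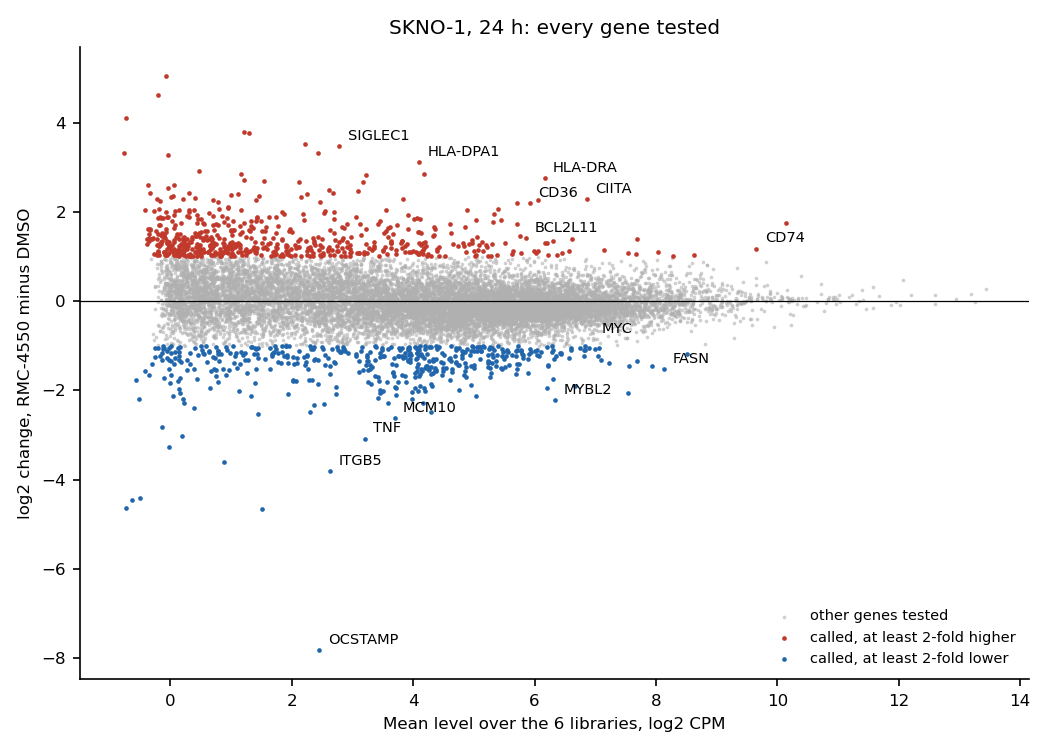
Each point is one of the 14690 genes tested, with its mean level over the 6 SKNO-1 libraries (log2 CPM, horizontal axis) against its log2 change, RMC-4550 minus DMSO (vertical axis). Red and blue points were called and changed at least 2-fold (575 higher, 463 lower), the plotted height of OCSTAMP depends on the offset of 0.5 reads because the treated libraries had at most 1 read, and the class II genes HLA-DRA, HLA-DPA1, CD74 and CIITA lie among the rises.

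Single genes were ranked among called genes with a symbol, a mean of at least 5 CPM and no overlap of groups. The largest changes in this ranking involved cell fusion, adhesion, an inflammatory cytokine and antiviral proteins. Some genes outside it changed more, and the highest log2 change over all genes tested was 5.05. OCSTAMP encodes a membrane protein needed for fusion of osteoclast precursors, and it was read at 9.60, 10.97 and 12.2 CPM in the DMSO libraries and at 0, 0.0464 and 0.0460 CPM in the treated ones. The treated libraries had at most 1 read each, so OCSTAMP was at least 78.8-fold lower against a floor of 3 reads per library (limma adjusted p 2.4e-11). OCSTAMP passed the minimum only through the DMSO libraries. ITGB5, the beta 5 integrin chain, was at 11.1, 11.98 and 11.7 CPM with DMSO and 1.11, 0.742 and 0.644 CPM with RMC-4550. It fell 13.95-fold (adjusted p 1.7e-11), and every treated library lay below every DMSO library. ITGB5 could not have passed the minimum without the DMSO libraries. TNF, the inflammatory cytokine, went from 16.8, 16.8 and 15.6 to 1.57, 2.27 and 1.98 CPM, a fall of 8.47-fold (adjusted p 6.8e-12).

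SIGLEC1, a sialic acid receptor of macrophages that interferon induces, was read at 1.11, 1.01 and 1.22 CPM with DMSO and 10.5, 14.5 and 12.96 CPM with RMC-4550. It rose 11.1-fold (limma adjusted p 6.8e-12), and the groups did not overlap. ENHO, which encodes the secreted peptide adropin, rose from 4.06, 4.73 and 4.38 CPM to 28.3, 33.1 and 34.2 CPM, and NHSL2 from 2.12, 1.65 and 2.26 CPM to 9.72, 11.04 and 11.8 CPM. The log2 changes were 2.85 for ENHO and 2.43 for NHSL2, with adjusted p-values of 3.3e-13 and 1.8e-10. Other falls among the 10 largest were TMEM121B (log2 change -2.49), the transcribed pseudogene ANKRD18DP (-2.34), the anti-apoptotic DNA damage gene DDIAS (-2.31) and MYBL2 (-2.21), the MYB family factor of late cell cycle genes. MYBL2 was at 132, 132 and 137 CPM with DMSO and 27.9, 30.4 and 28.1 CPM with RMC-4550.

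The greatest falls in CPM were in abundant transcripts. YBX1, an RNA-binding protein, fell from 1534, 1332 and 1386 to 1121, 881 and 955 CPM, and the tubulin gene TUBB from 1170.2, 1202 and 1195 to 807, 796 and 776 CPM (limma adjusted p 1.0e-05 and 1.8e-08). The chaperone gene HSPA8 fell 1.79-fold and the glycolytic genes ENO1 and GAPDH fell 1.14-fold and 1.11-fold, and these 3 calls were lost in the fit over 18 libraries (adjusted p 0.37, 0.53 and 0.64). The greatest gains in CPM among genes with a symbol were in MT-RNR2, the actin gene ACTG1, the ferritin gene FTL, MT-ND1 and CD74. Of these 5, only CD74 kept its call over 18 libraries, the adjusted p being 0.66 for MT-RNR2, 0.066 for ACTG1, 0.36 for FTL and 0.59 for MT-ND1.

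**Figure D2:**
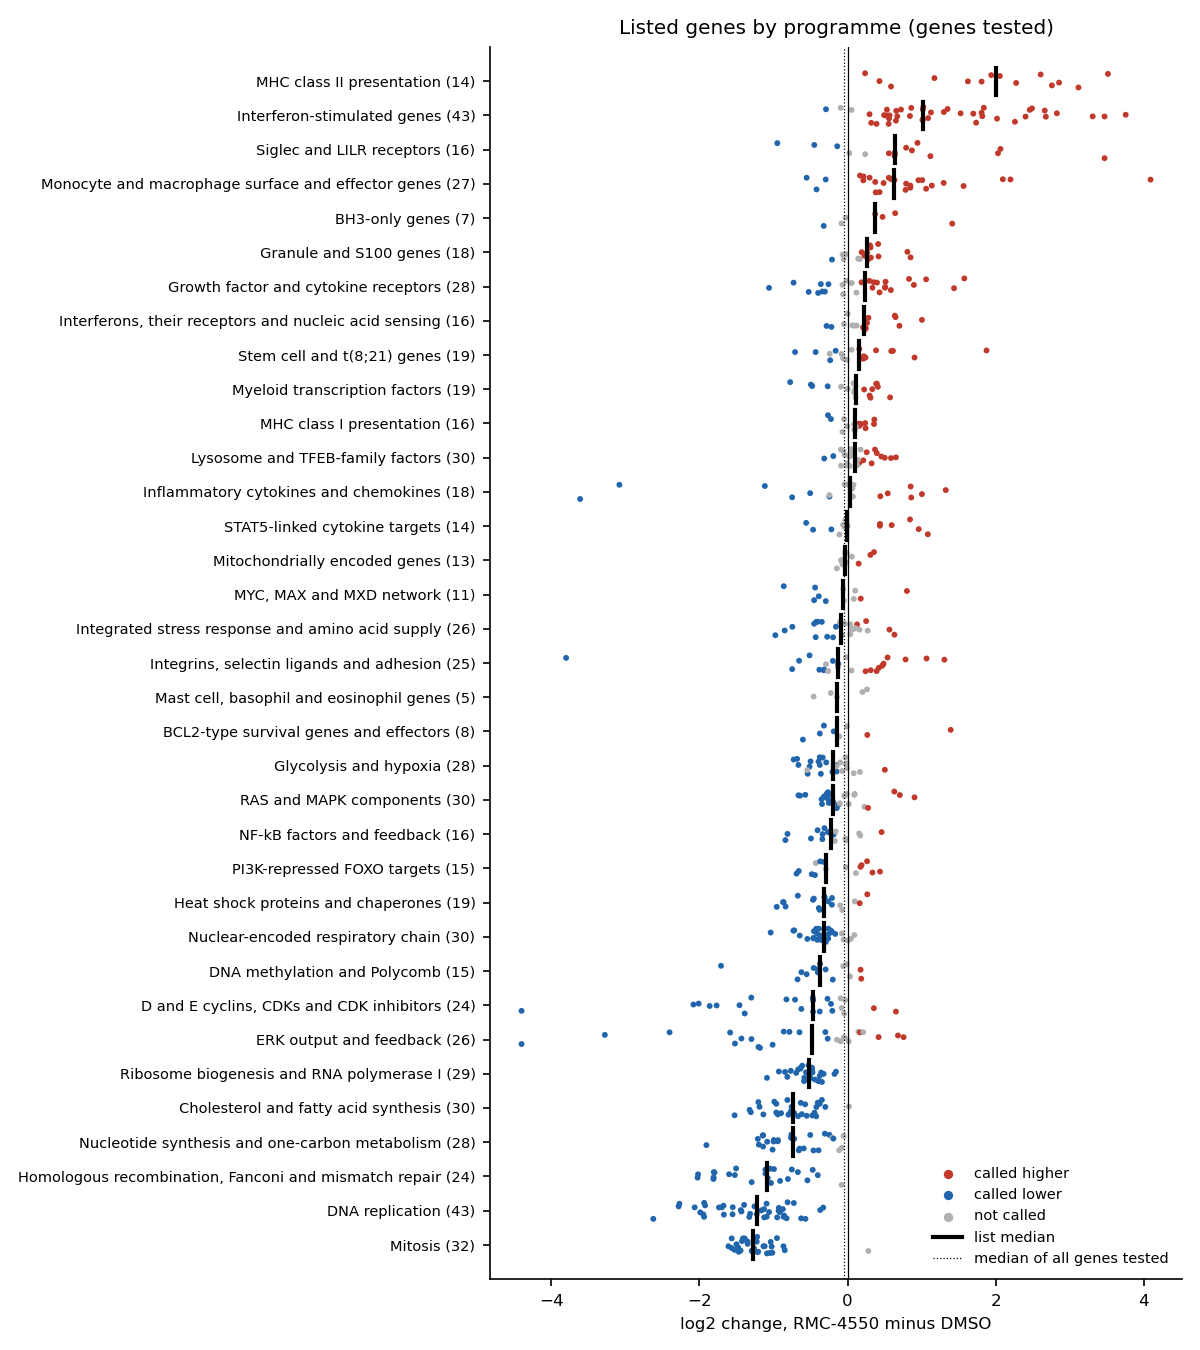
Each row is a list of genes with the number tested in brackets, and each point is a gene at its log2 change, RMC-4550 minus DMSO (horizontal axis), coloured by its call, while the thick bar is the median of the list. Medians run from -1.27 for mitosis to 2.00 for MHC class II presentation, against -0.05 for all genes tested (dotted line), and fitted changes of genes near 0 reads such as CCND1 depend on the offset of 0.5 reads.

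PTPN11, which encodes the target of the inhibitor, was read at 139, 125 and 126 CPM in the DMSO libraries and 87.6, 82.5 and 80.2 CPM in the treated ones. All treated values lay below all DMSO values, and PTPN11 fell 1.56-fold (limma adjusted p 9.0e-08). KIT, the mutated receptor of the line, was at 32.2, 33.4 and 31.4 CPM with DMSO and 40.9, 40.5 and 37.6 CPM with RMC-4550. The groups did not overlap and KIT was called higher by 1.23-fold (adjusted p 0.0012), a call that was lost over 18 libraries (adjusted p 0.44). CSF2RB, the beta chain of the GM-CSF receptor, was at 57.4 to 64.02 CPM with DMSO and 58.8 to 67.1 CPM with RMC-4550, and these overlapping values gave no call (log2 change 0.06, SE 0.07, adjusted p 0.50). The alpha chain gene CSF2RA and IL3RA were not analysed here. RUNX1T1, the fusion partner of RUNX1 in t(8;21), was read in every library, at 13.2 to 14.4 CPM with DMSO and 10.9 to 12.5 CPM with RMC-4550. Its log2 change of -0.23 was called (adjusted p 0.035) but not over 18 libraries (adjusted p 0.71), nor under median-ratio or quantile scaling, nor without DMSO replicate 2 or 3 or RMC-4550 replicate 3.

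Transcripts that ERK signalling induces were mostly lower. Of 31 listed genes of ERK output and feedback, 26 were tested, and 15 were lower and 4 higher, against 33.2% and 24.3% of all genes, with a median log2 change of -0.47. ETV4, CCND1 and EGR3 passed the minimum only through the DMSO libraries. DUSP6, a phosphatase that removes phosphate from ERK and is itself induced by it, was at 84.9, 83.9 and 84.8 CPM with DMSO and 31.97, 35.5 and 35.7 CPM with RMC-4550. It fell 2.46-fold (limma adjusted p 2.0e-11). ETV5, an ETS transcription factor of the PEA3 group, went from 38.2, 37.9 and 36.6 to 11.98, 13.7 and 11.9 CPM and fell 3.00-fold (adjusted p 2.4e-11). In both genes the treated values stood together well below the DMSO values. FOSL1, an AP-1 subunit, fell from 12.6, 14.6 and 15.4 to 5.00, 6.12 and 4.69 CPM, a log2 change of -1.43 (adjusted p 1.4e-08).

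The feedback inhibitors SPRY2 and SPRED2 fell 2.87-fold and 2.30-fold, and the phosphatase gene DUSP4 fell 2.02-fold. These 3 genes were outside the naming rule and were chosen after their values were seen. With DMSO, CCND1, the cyclin D1 gene, was covered by 25 to 36 reads, and with RMC-4550 by 0 to 3, which makes it at least 9.69-fold lower against the floor of 3 reads per library. Not every early response gene followed. FOS rose from 342, 366 and 360.1 to 447, 504 and 479 CPM (1.34-fold, limma adjusted p 5.0e-06) and DUSP5 rose 1.69-fold (adjusted p 2.2e-04). FOSL2 was 1.13-fold higher, a call lost over 18 libraries (adjusted p 0.67). The early genes JUN, JUNB, FOSB, IER2, IER5 and MAFF were not called (adjusted p 0.071 for JUN to 0.85 for FOSB).

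The components of the pathway itself moved less. Of 30 genes of the RAS and MAPK list tested, 17 were lower and 4 higher, against 33.2% and 24.3% of all genes tested. None changed 2-fold, and the fit over 18 libraries called 3 lower and 3 higher. RASGRP4, a RAS exchange factor of myeloid cells, rose from 75.6, 81.05 and 81.1 to 132, 169 and 146 CPM (1.87-fold, limma adjusted p 1.1e-08), and the scaffold gene KSR1 rose 1.55-fold (adjusted p 2.6e-07). GAB2, an adaptor that docks SHP2, was 1.63-fold higher and CBL, an E3 ligase of activated receptors, 1.28-fold lower, and both calls were lost over 18 libraries (adjusted p 0.090 and 0.46). RASA2, a RAS GTPase-activating protein, fell 1.49-fold (adjusted p 5.2e-05). The core genes NRAS, BRAF and MAP2K1 had log2 changes of -0.26, -0.35 and -0.19, and their 3 calls were lost over 18 libraries (adjusted p 0.57, 0.25 and 0.46).

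Among 28 receptor genes tested of 37 listed, 15 were higher and 8 lower, against 24.3% and 33.2% of all genes tested. The median log2 change was 0.24, and 1 of the higher genes passed the minimum only through the treated libraries. CSF1R, the receptor for M-CSF, was at 128, 136 and 134 CPM with DMSO and 260.3, 294 and 276 CPM with RMC-4550. It rose 2.09-fold (limma adjusted p 5.1e-11) with no overlap between the groups. AXL, a receptor tyrosine kinase of the TAM family, rose from 17.3, 17.9 and 18.03 to 45.6, 53.9 and 45.3 CPM (2.71-fold, adjusted p 5.6e-11). IL17RA, the IL-17 receptor chain, fell from 185, 179 and 175 to 81.2, 91.8 and 86.1 CPM (2.09-fold, adjusted p 6.9e-11). FGFR1 and EPOR, the erythropoietin receptor gene, fell by 0.52 and 0.40 on the log2 scale. IL7R was 1.86-fold higher with a call lost over 18 libraries (adjusted p 0.14).

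Targets of cytokine signalling through STAT5 split. Of 14 genes, 6 were higher and 3 lower, against 24.3% and 33.2% of all genes tested. The suppressors of cytokine signalling were among the rises, with CISH at 102, 110.3 and 107 CPM under DMSO and 178, 199 and 198 CPM under RMC-4550 (limma adjusted p 1.6e-09). SOCS1 rose 2.12-fold and SOCS3 1.95-fold (adjusted p 2.2e-06 and 2.3e-09), so that all 3 inhibitors were above their DMSO range in every treated library. The kinase gene PIM3 and the cyclin gene CCND2 fell 1.47-fold and 1.38-fold, and PIM1 was not called (log2 change -0.03, adjusted p 0.66). STAT5B was 1.16-fold lower, a call lost over 18 libraries (adjusted p 0.15). Of 15 genes that PI3K signalling represses through FOXO factors, 5 were higher and 6 lower, which is near the 24.3% and 33.2% of all genes tested. INSR, the insulin receptor gene, and BCL6 were higher by 0.34 and 0.44 on the log2 scale, BCL6 not without RMC-4550 replicate 3, and RICTOR, a subunit of mTORC2, and SESN1 were lower by 0.69 and 0.66.

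**Figure D3:**
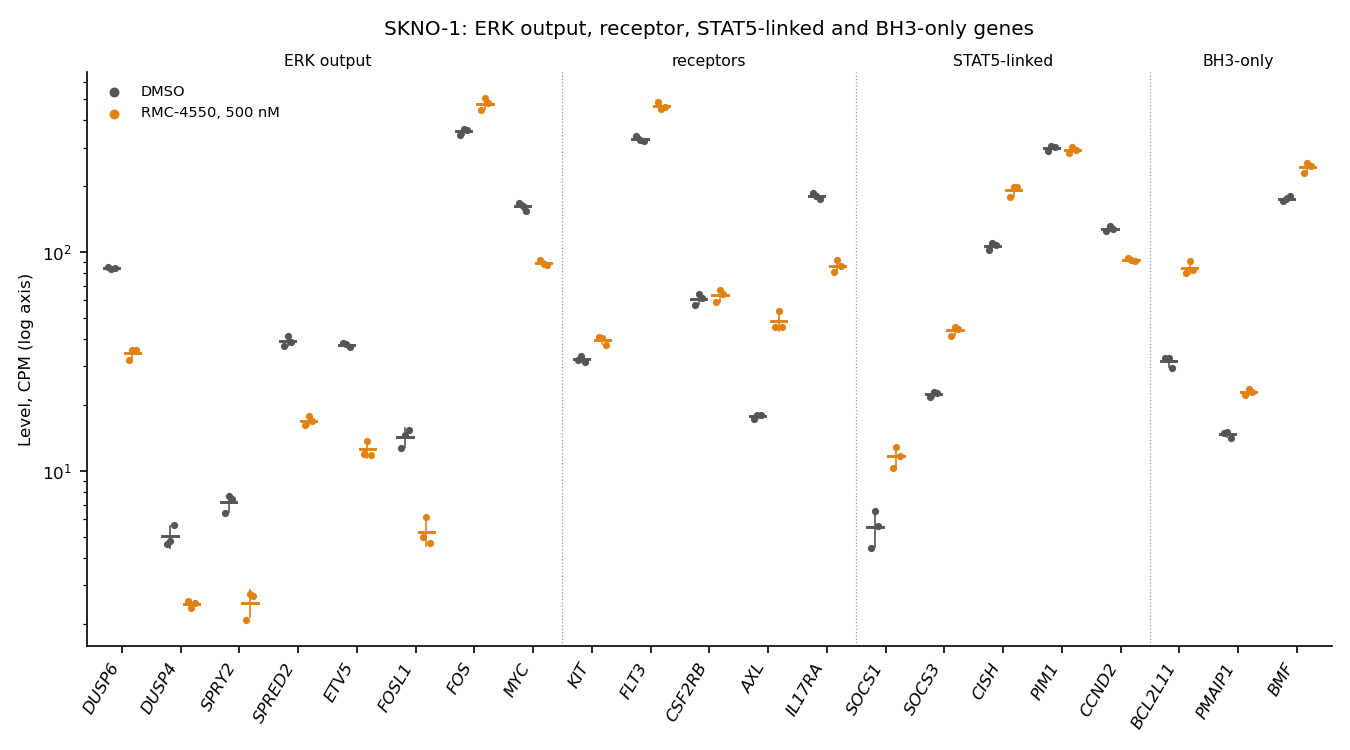
Levels in CPM (log axis) in each of the 3 DMSO (grey) and 3 RMC-4550 (orange) libraries of SKNO-1, with horizontal bars at the mean and vertical bars of 1 SD, for genes of ERK output, receptors, STAT5-linked targets and BH3-only proteins. DUSP6, ETV5 and SPRED2 lie lower with RMC-4550 while FOS, AXL, CISH and BCL2L11 lie higher, and CSF2RB and PIM1 overlap.

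Cell cycle genes fell together. Of 24 genes for D and E cyclins, their kinases and inhibitors, and E2F factors, 18 were lower (8 of them at least 2-fold) and 2 higher, against 33.2% and 24.3% of all genes tested, and CCND1 passed the minimum only through the DMSO libraries. E2F1, an activator of S phase genes, was at 29.6, 32.3 and 30.3 CPM with DMSO and 7.17, 8.58 and 9.75 CPM with RMC-4550. It fell 3.64-fold (limma adjusted p 5.6e-11). E2F2 fell from 10.5, 11.3 and 10.5 to 2.41, 2.55 and 2.62 CPM and the atypical factor E2F8 from 19.3, 17.9 and 17.7 to 4.67, 3.99 and 4.92 CPM, both with treated values far below the DMSO range (log2 changes -2.08 and -2.01). The 2 rises were in inhibitors of cyclin-dependent kinases, CDKN1C (1.57-fold, adjusted p 1.9e-05) and CDKN1B, the p27 gene (1.28-fold, adjusted p 9.8e-05, lost over 18 libraries at 0.15).

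All 43 listed genes of DNA replication were tested and all 43 were lower, against 33.2% of all genes tested. Of these 43, 28 were at least 2-fold lower, against 3.15%, and the median log2 change was -1.23. In the fit over 18 libraries 41 of these genes were called lower. MCM10, which helps to activate the replicative helicase, was at 22.8, 21.8 and 22.3 CPM with DMSO and 3.52, 4.18 and 3.17 CPM with RMC-4550. It fell 6.16-fold (limma adjusted p 3.7e-12). CDC45, a subunit of that helicase, went from 29.8, 30.9 and 28.5 to 5.46, 6.68 and 6.21 CPM, and CLSPN, the claspin gene of the replication checkpoint, from 19.2, 19.9 and 20.2 to 4.67, 4.31 and 3.36 CPM. The falls were 4.86-fold and 4.83-fold (adjusted p 2.9e-12 and 3.3e-11), and in each of these genes every treated library stood far below the lowest DMSO library.

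The promoters of replication genes often carry sites for E2F factors, and the sequences below show such letters in windows of 200 bases before the annotated start. They were taken from RefSeq (GRCh38.p14), and a match describes the letters only. The motif was searched on both strands as TTTGGCGC, TTTCCCGC, TTTGCCGC or TTTCGCGC in windows of 250 bases before and 50 after the start. It was present in 17 of the 36 replication genes with a window (47.2%), against 5.39% of 10428 tested genes with a window and 3.33% of all 27305 genes in the table. Shown are 2 members with large changes among those with at least 5 CPM and a match in the 200 bases, with matches in capitals. Not every gene was open to this choice, so members with larger changes may be missing. In MCM6 each capital run holds 2 overlapping matches. MCM6, a helicase subunit, fell from 127, 117 and 121 to 35.9, 37.1 and 36.4 CPM, and GINS2, of the GINS complex, from 24.9, 26.99 and 25.8 to 8.42, 7.52 and 8.37 CPM. The windows are MCM6 at chr2:135876444-135876643, - strand, and GINS2 at chr16:85688955-85689154, - strand.
MCM6: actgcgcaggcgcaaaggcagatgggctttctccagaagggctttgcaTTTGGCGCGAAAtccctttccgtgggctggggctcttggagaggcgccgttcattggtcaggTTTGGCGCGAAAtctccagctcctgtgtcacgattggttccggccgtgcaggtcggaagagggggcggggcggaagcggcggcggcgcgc
GINS2: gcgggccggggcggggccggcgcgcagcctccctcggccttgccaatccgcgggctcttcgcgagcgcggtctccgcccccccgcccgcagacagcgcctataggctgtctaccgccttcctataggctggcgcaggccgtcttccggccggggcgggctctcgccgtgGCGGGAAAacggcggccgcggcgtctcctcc

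Of 33 genes of mitosis, 32 were tested, with a median log2 change of -1.27. At least 2-fold falls were called in 28, and 31 were lower, against 3.15% and 33.2% of all genes tested. The exception was NUSAP1, a spindle protein gene with about 1 CPM, which was not called (log2 change 0.28, adjusted p 0.33). CDK1, the kinase that drives entry into mitosis, was at 62.2, 58.7 and 55.7 CPM with DMSO and 21.7, 16.9 and 19.6 CPM with RMC-4550, a fall of 3.05-fold (limma adjusted p 3.8e-11). NUF2, a kinetochore protein, fell from 26.9, 24.05 and 24.2 to 10.5, 6.82 and 8.41 CPM and ECT2, a regulator of cytokinesis, from 29.9, 32.7 and 30.7 to 10.5, 10.99 and 9.93 CPM. The 3 treated libraries lay below the DMSO libraries in each of these genes, and the falls were 2.96-fold and 2.96-fold.

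The cell cycle genes homology region is a promoter element of genes expressed late in the cycle. It was searched on both strands as TTTGAA or TTCGAA in the same windows and was present in 22 of the 28 mitosis genes with a window (78.6%), against 11.4% of tested genes and 16.6% of all genes in the table. The windows of CDK1 (chr10:60778131-60778330, + strand) and ECT2 (chr3:172750526-172750725, + strand), chosen by the same rule as above, are shown with the matches in capitals.
CDK1: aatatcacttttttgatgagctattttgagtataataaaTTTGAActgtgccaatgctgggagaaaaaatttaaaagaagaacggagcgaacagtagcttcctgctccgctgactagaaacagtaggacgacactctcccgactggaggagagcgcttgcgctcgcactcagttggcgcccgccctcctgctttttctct
ECT2: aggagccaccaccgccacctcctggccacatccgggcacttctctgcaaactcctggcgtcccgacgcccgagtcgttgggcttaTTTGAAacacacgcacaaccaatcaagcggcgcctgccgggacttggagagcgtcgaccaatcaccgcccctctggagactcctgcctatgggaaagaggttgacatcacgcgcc

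Genes of homologous recombination, the Fanconi pathway and mismatch repair followed the same direction, with 23 of 24 lower, against 33.2% of all genes tested. The median log2 change was -1.09. FANCG, counted as lower, passed the minimum only through the DMSO libraries. EXO1, a nuclease of resection, fell from 27.2, 23.6 and 25.6 to 6.11, 5.89 and 6.71 CPM (limma adjusted p 1.0e-11). XRCC2 and RAD54L, which act in strand exchange, fell 3.51-fold and 3.50-fold, and PMS2 was the 1 gene not called (adjusted p 0.34). Of 28 genes of nucleotide synthesis and one-carbon metabolism, 24 were lower, against 33.2% of all genes tested. RRM2, the regulated subunit of ribonucleotide reductase, was at 159, 161 and 159 CPM with DMSO and 42.7, 40.1 and 45.1 CPM with RMC-4550. It fell 3.75-fold (adjusted p 6.9e-14), and the salvage and synthesis genes TK1 and CTPS1 fell 2.29-fold and 2.32-fold. The 4 genes without a call were IMPDH2, ADSL, SHMT2 and MTHFD2 (adjusted p 0.22, 0.073, 0.11 and 0.41).

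Among 15 genes of DNA methylation and Polycomb, 10 were lower and 2 higher, against 33.2% and 24.3% of all genes tested. UHRF1, which brings DNMT1 to replicated DNA, fell from 60.99, 58.8 and 57.7 to 18.9, 18.6 and 16.8 CPM (3.27-fold, limma adjusted p 2.9e-12). DNMT1 and DNMT3B fell 1.60-fold and 1.54-fold. The 2 rises, EZH1 and TET3, were 1.14-fold and 1.13-fold and were lost over 18 libraries (adjusted p 0.068 and 0.52).

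**Figure D4:**
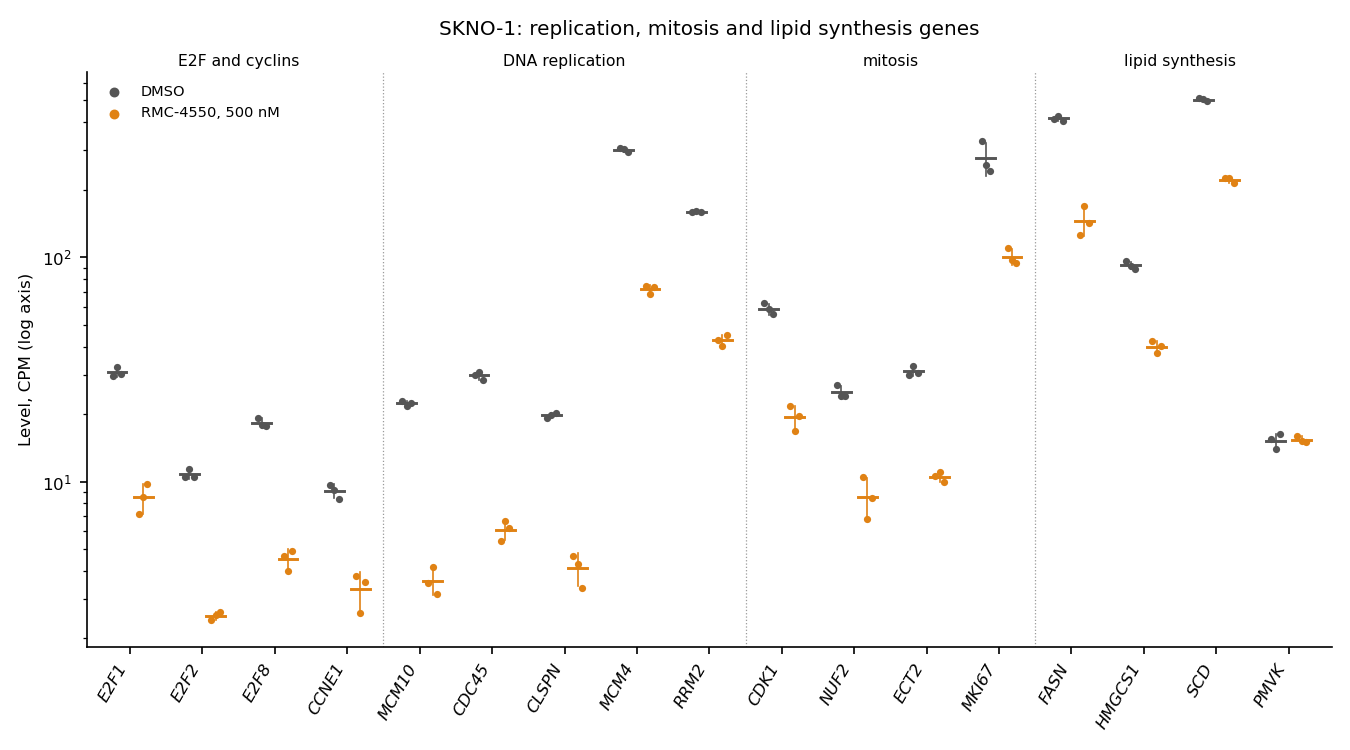
Levels in CPM (log axis) in each of the 3 DMSO (grey) and 3 RMC-4550 (orange) SKNO-1 libraries, with bars at the mean and 1 SD, for E2F and cyclin genes, DNA replication, mitosis and lipid synthesis. The treated libraries lie below the DMSO libraries in every gene shown but PMVK, where they overlap.

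MYC, the transcription factor of growth genes, was at 167, 163 and 154 CPM with DMSO and 91.7, 87.7 and 86.9 CPM with RMC-4550. All treated values lay below the DMSO values, and the fall of 1.82-fold was called (limma adjusted p 5.5e-10) but not over 18 libraries (adjusted p 0.17). Of the 11 genes tested of the MYC, MAX and MXD network 5 were lower and 2 higher, against 33.2% and 24.3% of all genes. MXI1 and MXD1, antagonists of MYC, fell by 0.45 and 0.44 on the log2 scale. All 29 tested genes of ribosome biogenesis and RNA polymerase I were lower, with a median log2 change of -0.53, and 20 were called over 18 libraries. DDX21, a nucleolar helicase, fell from 143, 125 and 127 to 68.7, 59.8 and 57.4 CPM (adjusted p 6.8e-10), and the assembly factors NOLC1 and DKC1 fell 1.90-fold and 1.80-fold.

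Amino acid supply and the integrated stress response showed no common direction, with 11 of 26 genes lower and 4 higher, against 33.2% and 24.3% of all genes tested. The amino acid transporter genes SLC7A5 and SLC7A1 fell, SLC7A5 from 210.0, 219 and 220.5 to 101, 118 and 112 CPM (limma adjusted p 2.8e-10) and SLC7A1 by 0.75 on the log2 scale. PSAT1, of serine synthesis, fell 1.80-fold. WARS1, the tryptophan tRNA synthetase gene that interferon also induces, rose 1.55-fold (adjusted p 8.9e-09), and TRIB3 rose 1.48-fold.

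Energy metabolism was lower by smaller amounts. Of 30 nuclear genes of the respiratory chain, 25 were lower, against 33.2% of all genes tested, and the other 5 were not called. The median log2 change was -0.32, and 10 were called over 18 libraries. SDHA, of complex II, and ATP5MC1, of the ATP synthase, fell 1.66-fold and 1.65-fold, and NDUFS1, of complex I, 1.56-fold, lost over 18 libraries (limma adjusted p 0.12). Of the 13 mitochondrially encoded genes, MT-ND1, MT-ND2 and MT-ND3 were higher, by 0.31, 0.15 and 0.36 on the log2 scale, and 10 were not called. These 3 calls were lost over 18 libraries (adjusted p 0.59, 0.83 and 0.50). Of 28 genes of glycolysis and hypoxia 17 were lower, against 33.2% of all genes tested, and 5 were called lower over 18 libraries. ENO2 and PFKM fell 1.66-fold and 1.58-fold, and the 1 rise was in VEGFA, the vascular growth factor gene (1.42-fold, adjusted p 1.7e-07).

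Chaperone genes were lower in 14 of 19 cases and higher in 2, against 33.2% and 24.3% of all genes tested. HSP90AA1, a stress-inducible chaperone, fell from 617, 578 and 578 to 337, 288 and 291 CPM (limma adjusted p 4.5e-10). The chaperone genes HSPH1, of the cytosol, and HSPE1, of mitochondria, fell 1.83-fold and 1.82-fold. The 2 rises were in genes of the endoplasmic reticulum, HERPUD1 and HSP90B1, at 1.204-fold and 1.12-fold, and both were lost over 18 libraries (adjusted p 0.25 and 0.22).

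Genes for synthesis of cholesterol and fatty acids were lower. Of 30 genes tested of 31 listed, 29 were lower, 6 of them at least 2-fold, against 33.2% and 3.15% of all genes tested. The median log2 change was -0.74, and 26 were called over 18 libraries. FASN, the fatty acid synthase, was at 415, 428 and 406 CPM with DMSO and 126, 169 and 143 CPM with RMC-4550. It fell 2.88-fold (limma adjusted p 2.5e-11). HMGCS1, an early enzyme of the mevalonate pathway, fell from 95.9, 91.2 and 88.8 to 42.2, 37.3 and 40.3 CPM, and SCD, the stearoyl-CoA desaturase, from 511, 506 and 497 to 225, 226 and 214 CPM. No treated library reached the DMSO range in these 3 genes. PMVK was the 1 gene not called (log2 change 0.02, adjusted p 0.87). The letters TCACNCCAC of an SREBP site, searched on both strands, were found in 1 of the 24 windows of this list (4.17%), against 1.11% of tested genes and 1.15% of all genes.

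Interferon-stimulated genes rose together. Of 45 listed genes 43 were tested, and 40 were higher, 25 of them at least 2-fold, against 24.3% and 3.91% of all genes tested. The median log2 change was 1.02, 35 genes were called over 18 libraries, and EPSTI1 passed the minimum only through the treated libraries. IFIT1, which binds viral RNA, was at 1.06, 0.872 and 0.942 CPM with DMSO and 11.4, 7.56 and 10.5 CPM with RMC-4550. It rose 9.93-fold (limma adjusted p 4.1e-11), and these values rest on 19 to 23 reads in a DMSO library and 163 to 247 in a treated one. IFIT1 could not have passed the minimum without the treated libraries. IFIT3 rose from 2.35, 2.16 and 2.73 to 16.9, 14.5 and 15.2 CPM and IFI44L from 2.45, 2.20 and 2.17 to 18.9, 14.3 and 15.9 CPM, with no overlap between the groups (adjusted p 1.0e-11 and 6.8e-12). IFIT2 and OASL, of the oligoadenylate synthetase family, rose 5.51-fold and 5.63-fold. LY6E was the 1 gene called lower (1.22-fold), a call lost over 18 libraries (adjusted p 0.093), and BST2 and GBP2 were not called (adjusted p 0.49 and 0.35).

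Windows of 200 bases before the start are shown for 3 interferon-stimulated genes with large changes, at least 5 CPM and a match. The choice had the same limit as for the replication genes. The core of the interferon-stimulated response element, GAAANNGAAA on either strand, was frequent in this list. It was present in 21 of 33 genes with a window (63.6%), against 2.95% of tested genes and 3.65% of all genes in the table, and is printed in capitals. The windows are IFIT1 at chr10:89392423-89392622, + strand, IFI44L at chr1:78620248-78620447, + strand, and IFIT3 at chr10:89327797-89327996, + strand.
IFIT1: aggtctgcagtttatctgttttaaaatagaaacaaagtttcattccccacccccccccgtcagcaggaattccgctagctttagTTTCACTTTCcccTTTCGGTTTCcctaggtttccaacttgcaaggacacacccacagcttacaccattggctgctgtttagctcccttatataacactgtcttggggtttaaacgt
IFI44L: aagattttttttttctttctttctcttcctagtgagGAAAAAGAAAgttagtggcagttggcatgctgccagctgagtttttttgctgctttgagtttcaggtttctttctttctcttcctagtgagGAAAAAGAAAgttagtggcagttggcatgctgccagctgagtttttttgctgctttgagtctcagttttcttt
IFIT3: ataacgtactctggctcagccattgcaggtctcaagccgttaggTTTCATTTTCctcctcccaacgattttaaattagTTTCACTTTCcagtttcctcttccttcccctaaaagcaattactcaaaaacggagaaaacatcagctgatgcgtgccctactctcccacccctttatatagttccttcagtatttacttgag

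Of the interferon genes themselves, only IFNB1 and IFNL1 were examined, and both were at or near 0. IFNB1 had at most 1 read in any library and IFNL1 had 0, and IFNA1, IFNA2 and IFNG were not analysed here. Of 16 tested genes for interferon receptors, their kinases and nucleic acid sensors, 9 were higher and 2 lower. The shares of all genes tested were 24.3% and 33.2%. SAMHD1, a nucleotide hydrolase that restricts viruses, rose from 209.5, 208 and 205 to 419, 423 and 408 CPM (limma adjusted p 2.1e-11). IRF5 and the adaptor gene MYD88 rose 1.63-fold and 1.57-fold. The 2 genes called lower were the chains of the interferon gamma receptor, IFNGR1 and IFNGR2, at 1.22-fold and 1.16-fold, and both calls were lost under quantile normalization. IFNAR1 and IFNAR2, the receptor chains for type I interferon, were not called (adjusted p 0.15 and 0.52).

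All 14 tested genes of MHC class II presentation were higher, 11 of them at least 2-fold, against 24.3% and 3.91% of all genes tested. The median log2 change was 2.00. HLA-DPB1, HLA-DQA1 and HLA-DMB passed the minimum only through the treated libraries, and HLA-DOA and HLA-DOB, the chains of a peptide loading modulator, had too few reads to be tested. HLA-DRA, the alpha chain of HLA-DR, was at 17.4, 18.1 and 19.8 CPM with DMSO and 120.2, 123 and 132 CPM with RMC-4550. It rose 6.78-fold (limma adjusted p 8.9e-15). HLA-DPA1 rose from 3.37, 3.95 and 3.25 to 27.4, 33.03 and 31.9 CPM, 8.69-fold (adjusted p 2.8e-13). CIITA, the coactivator that controls class II transcription, was at 41.01, 41.99 and 36.6 CPM with DMSO and 179, 212 and 190.2 CPM with RMC-4550, and CD74, the invariant chain, at 474, 497 and 515 and 1069, 1162 and 1122 CPM. In these 4 genes the lowest treated library was more than 2-fold above the highest DMSO library, and CIITA rose 4.85-fold and CD74 2.26-fold (adjusted p 6.3e-14 and 8.7e-12). HLA genes are near-identical and vary between alleles, and how reads that match several of them were counted is not given in the sources used here, so single HLA values are uncertain.

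The Y box of class II promoters, CTGATTGG on either strand, was present in 5 of 14 genes of this list with a window (35.7%), against 5.35% of tested genes and 4.16% of all genes. The reference sequence is shown with it in capitals for HLA-DRB1 (chr6:32589849-32590048, - strand) and HLA-DMA (chr6:32953098-32953297, - strand), which rose 4.16-fold and 3.84-fold.
HLA-DRB1: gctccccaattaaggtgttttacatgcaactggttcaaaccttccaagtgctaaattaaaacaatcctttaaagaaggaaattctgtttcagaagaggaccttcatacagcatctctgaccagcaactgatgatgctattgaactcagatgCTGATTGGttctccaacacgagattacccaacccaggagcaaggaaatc
HLA-DMA: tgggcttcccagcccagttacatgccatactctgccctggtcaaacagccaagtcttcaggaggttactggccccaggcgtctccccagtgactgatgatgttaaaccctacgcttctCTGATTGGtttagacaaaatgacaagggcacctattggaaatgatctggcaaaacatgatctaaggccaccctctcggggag

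MHC class I changed little. Of 16 genes, 7 were higher and 2 lower, against 24.3% and 33.2% of all genes tested, with no 2-fold change and a median log2 change of 0.11. HLA-C and HLA-E rose 1.29-fold and 1.28-fold (limma adjusted p 2.7e-05 and 1.0e-05), and the immunoproteasome gene PSMB8 rose 1.18-fold. NLRC5, the coactivator of class I genes, and the peptide transporter gene TAP2 were 1.201-fold and 1.17-fold lower, both lost over 18 libraries (adjusted p 0.10 and 0.14).

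**Figure D5:**
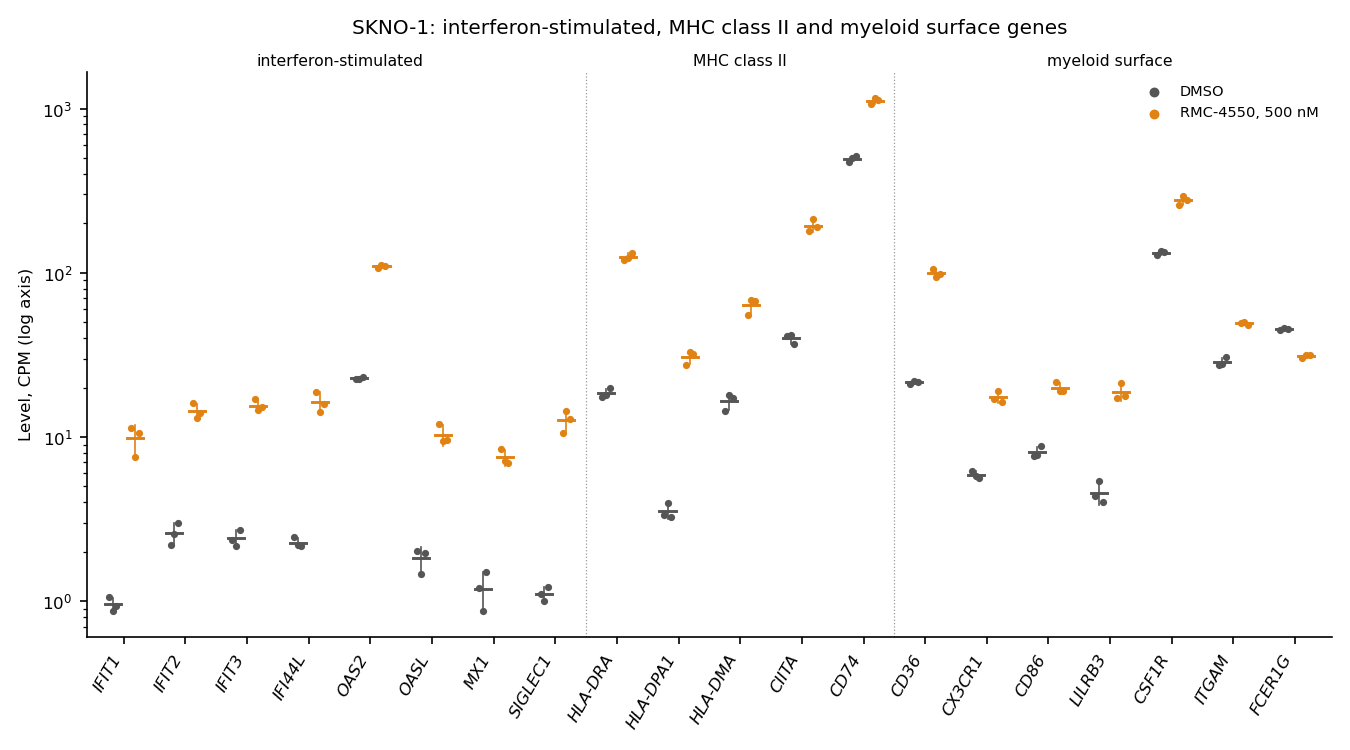
Levels in CPM (log axis) in each of the 3 DMSO (grey) and 3 RMC-4550 (orange) SKNO-1 libraries, with bars at the mean and 1 SD, for interferon-stimulated, MHC class II and myeloid surface genes. Every gene shown lies higher with RMC-4550 without overlap but FCER1G, which lies lower.

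Surface and effector genes of monocytes and macrophages were mostly higher. Of 38 listed genes 27 were tested, and 24 were higher and 3 lower, against 24.3% and 33.2% of all genes tested. The median log2 change was 0.63, and 14 were called higher over 18 libraries. CD36, a scavenger receptor, was at 21.1, 21.9 and 21.6 CPM with DMSO and 105, 93.99 and 98.5 CPM with RMC-4550. It rose 4.60-fold (limma adjusted p 3.5e-14). CX3CR1, the fractalkine receptor, rose from 6.23, 5.78 and 5.65 to 17.03, 19.1 and 16.4 CPM and CD86, a costimulatory ligand for T cells, from 7.66, 7.76 and 8.80 to 21.5, 19.1 and 19.1 CPM, both without overlap between the groups. FCER1G, FCGR1A and TLR2 were lower, by 0.55, 0.42 and 0.29 on the log2 scale, and the FCER1G call was lost over 18 libraries (adjusted p 0.10). Several defining monocyte genes stayed near 0 in both groups, CD14 at no more than 3 reads per library, CD163 at no more than 2, FCN1 at 0 and CYBB at 3 to 7. C1QC, of complement C1q, was covered by 0 to 2 reads with DMSO and 22 to 28 with RMC-4550, at least 8.20-fold higher against the same floor. MSR1, C1QA and C1QC passed the minimum only through the treated libraries.

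Receptors of the Siglec and LILR families, many of which inhibit leukocytes, were higher in 11 of 16 tested genes and lower in 3. The shares of all genes tested were 24.3% and 33.2%. LILRA6, among the higher, passed the minimum only through the treated libraries. LILRB3 rose from 4.38, 5.37 and 4.002 to 17.3, 21.2 and 17.7 CPM (4.09-fold, limma adjusted p 1.6e-10), and SIGLEC10, a receptor for CD24, rose 1.93-fold. CD33, SIGLEC7 and the activating receptor gene LILRA5 were lower by 0.14, 0.45 and 0.95 on the log2 scale, and all 3 calls were lost over 18 libraries (adjusted p 0.28, 0.54 and 0.19). LILR genes are also close copies of each other, so reads may be split between them.

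Granule genes changed less. Of 18 tested genes, 12 were higher, against 24.3% of all genes tested, and 4 were called higher over 18 libraries. The median log2 change was 0.26, with no 2-fold change. CFD, the complement factor D gene, rose from 252, 271 and 303 to 439.6, 523 and 527 CPM (limma adjusted p 2.3e-08), and S100A4 and SERPINB1 rose 1.34-fold and 1.33-fold. Genes of late granules, LTF, CAMP and LCN2, had at most 6 reads in any library. Lysosome genes were higher in 11 of 30 cases and lower in 2, against 24.3% and 33.2% of all genes tested. CTSZ and CTSS, both cathepsins, and TFEB, a regulator of lysosome genes, rose 1.57-fold, 1.42-fold and 1.502-fold (adjusted p 1.6e-08, 4.0e-06 and 2.4e-06).

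Transcription factors of the myeloid lineage changed by small amounts, with 8 of 19 higher and 4 lower, against 24.3% and 33.2% of all genes tested, and a median log2 change of 0.11. KLF4, a monocyte factor, rose from 20.4, 21.5 and 21.5 to 29.8, 34.1 and 30.8 CPM (limma adjusted p 4.6e-06), and BHLHE40 rose 1.32-fold. ID1, an inhibitor of helix-loop-helix factors, fell 1.71-fold (adjusted p 4.5e-05). SPI1 and IRF8 were not called (log2 changes 0.09 and 0.00, adjusted p 0.22 and 0.99). Of 19 genes of stem cells and t(8;21) leukaemia, 10 were higher and 4 lower, against those same shares of all genes. POU4F1 and PAX5, both called higher, passed the minimum only through the treated libraries. MSI2, an RNA-binding protein of stem cells, rose from 79.6, 76.5 and 72.9 to 121, 118 and 112 CPM and HOXA10 1.31-fold, while GATA2 fell from 13.4, 13.1 and 14.1 to 8.51, 8.30 and 7.95 CPM (adjusted p 1.0e-07, 1.5e-04 and 4.3e-06). ERG was 1.35-fold lower and FLI1 1.18-fold higher, both calls lost over 18 libraries (adjusted p 0.49 and 0.16). Of 18 genes of mast cells, basophils and eosinophils only 5 had enough reads, and limma called 0 of them, with 1 (EPX) at an unadjusted p under 0.05 (adjusted p 0.052).

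Of 25 adhesion genes, 10 were higher and 9 lower, against 24.3% and 33.2% of all genes tested, so the count of lower genes was near the background. SELPLG, the P-selectin ligand, rose from 115, 122 and 122 to 243, 251 and 258 CPM, and the integrin chains ITGB7 and ITGAM rose 2.48-fold and 1.72-fold (limma adjusted p 2.5e-11, 1.4e-10 and 2.7e-08). ITGB2, the shared beta chain of leukocyte integrins, fell from 294, 301 and 318 to 189, 195 and 196 CPM (adjusted p 9.3e-09). Thus ITGAM and ITGB2, whose products pair as Mac-1, moved in opposite directions.

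Cytokine genes were divided as well. Of 18 tested of 32 listed, 6 were higher and 6 lower, against 24.3% and 33.2% of all genes tested. The count of lower genes was thus near the background. CCL2, among the lower, passed the minimum only through the DMSO libraries. TNFSF10, the death ligand TRAIL that interferon induces, rose from 6.14, 5.60 and 5.65 to 17.5, 11.6 and 15.1 CPM, and IL18 and CXCL16 rose 2.01-fold and 1.82-fold (limma adjusted p 9.4e-08, 6.7e-09 and 6.4e-06). HBEGF, a ligand of the EGF receptor, fell 1.68-fold (adjusted p 7.6e-07), beside TNF, given above. CCL5 was 1.18-fold lower with a call lost over 18 libraries (adjusted p 0.29). Of 16 NF-kB factors and feedback genes, 9 were lower and 1 higher, against 33.2% and 24.3% of all genes tested. TNFAIP3, the feedback inhibitor A20, fell from 55.04, 55.7 and 53.4 to 31.1, 30.9 and 31.5 CPM and RELA fell 1.41-fold (adjusted p 6.1e-09 and 1.3e-06). BIRC3 was 1.79-fold lower and TRAF1 1.38-fold higher, and both calls were lost over 18 libraries (adjusted p 0.27 and 0.13).

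Among genes of apoptosis, 4 of 7 tested BH3-only genes were higher and 1 lower, against 24.3% and 33.2% of all genes tested. BCL2L11, which encodes BIM and is repressed by ERK signalling, was at 32.8, 32.8 and 29.6 CPM with DMSO and 80.5, 91.2 and 82.5 CPM with RMC-4550. It rose 2.67-fold (limma adjusted p 1.8e-11). PMAIP1 (NOXA) and BMF rose 1.56-fold and 1.39-fold, and BBC3 (PUMA) fell 1.25-fold (adjusted p 1.7e-06, 9.4e-07 and 0.0018). Of 8 survival and effector genes, 2 were higher and 4 lower, against those same shares of all genes tested. The highest log2 change in this list was 1.39, and 1 gene, not named here, was called at least 2-fold higher. MCL1 was 1.204-fold higher and BCL2 1.14-fold lower, and neither call held over 18 libraries (adjusted p 0.054 and 0.61). BAX fell 1.25-fold (adjusted p 2.2e-04).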

How the data were processed

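Polyadenylated RNA, isolated with oligo(dT), was sequenced from 18 libraries, 3 of each of 6 groups, as DNA nanoballs after PCR, per the labels' protocols, which mention no molecular identifiers, so floors in reads cover counting error only. The authors deposited 1 table of log2 CPM for 40184 gene IDs, of which 40069 were matched to a symbol. FastQC, STAR, limma and GRCh38 are named in the submitters' processing notes, and the read counter, its use of strand and of shared reads, the annotation and the scaling method are not given in the sources used here. Whole reads were recovered from the table with an offset of 0.5 reads, within 0.01 of a read for 100% of values under 100 reads, and served only for depths, read ranges and the floor of 3 reads per library.

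Values of the 6 SKNO-1 libraries were fitted gene by gene with limma 3.58.1 (R 4.3.3; lmFit and eBayes with a trend, two-sided) without covariates, with Benjamini-Hochberg adjustment across all 14690 genes. A call is an adjusted p under 0.05. The log2 changes are on the deposited scale, which understates changes of low genes. Every adjusted p is from limma. The procedure was run on simulated data with far fewer changed genes than were called here. That run does not give the error rate of these calls. The genes named are PTPN11, KIT, CSF2RB and RUNX1T1, the 10 largest rises and falls with at least 5 CPM and no overlap of groups, the 5 largest rises and falls in CPM, and for each list up to 3 called genes in each direction with at least 5 CPM. Other genes are named as exceptions, for a known role or for their promoter, after their values were seen. The genes, lists and comparison were chosen with earlier results of these data known. Lists are described by counts and medians without a test. Promoter windows are from RefSeq (GRCh38.p14), 1 per gene. Alternatives changed the offset, CPM minimum, scaling, variance model, libraries fitted and replicates, and no batch is given in the labels. Figures were drawn with matplotlib 3.10.9 (Python 3.11.15). Some genes of the lists are not reported here.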

Additional observations from a re-analysis of the deposited data

How the results depend on the processing

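Among the named genes no called direction turned under any alternative tried, while the number of calls moved. The fit over all 18 libraries called 1588 genes higher and 2381 lower, and a test against a change of 1.2-fold (limma's treat) called 1549 higher and 1887 lower, against 3577 and 4878. Quantile normalization called 3899 higher and 4007 lower and kept 6935 of the 8455 calls. Median-ratio scaling called 3769 higher and 4611 lower. The shares of 24.3% and 33.2% given as background therefore depend on the scaling. Adding 1 CPM before taking logs left 241 genes at least 2-fold higher and 307 at least 2-fold lower, against 575 and 463. Genes at least 2-fold higher numbered 1059 with no CPM minimum and 203 with a mean of at least 5 CPM, so low genes make up much of this count. Leaving out 1 library at a time gave 3077 to 3713 genes higher and 4289 to 5061 lower, and 565 to 594 and 455 to 496 at least 2-fold. Of 179 named genes, 50 lost their call over 18 libraries, 52 against 1.2-fold, 13 under quantile normalization, 2 under median-ratio scaling and at most 12 without any 1 library. CSF2RB was called only under quantile normalization. Scaling turned the sign of the list medians for inflammatory cytokines, the integrated stress response, integrins, the MYC network and STAT5-linked targets, all near 0. Deviations of libraries with the same replicate number correlated at 0.21, 0.07 and 0.07, and not every library correlated best with its own number, so the numbers were not taken as pairs. A replicate block gave 4054 genes higher and 5441 lower and changed no named call. A count of 0 allows up to 3 reads per library, so folds of OCSTAMP, CCND1 and C1QC were given as bounds.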

Other observations

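Gene families outside the lists were gathered by symbol after the values had been seen, so their counts are descriptions. Of 23 histone genes tested, 19 were higher with RMC-4550 (13 at least 2-fold) and 2 lower, with a median log2 change of 1.06, against 24.3% of all genes tested called higher. In the fit over 18 libraries 15 were called higher. H2AC6 was at 17.99, 18.5 and 17.5 CPM with DMSO and 60.5, 57.8 and 65.6 CPM with RMC-4550, a rise of 3.40-fold (limma adjusted p 2.1e-12). H2BC5 rose from 3.92, 3.35 and 3.34 to 15.1, 12.1 and 12.1 CPM, and the linker histone gene H1-2 from 6.60, 5.92 and 6.73 to 19.2, 15.7 and 17.5 CPM. Most histone mRNA lacks a poly(A) tail, and the libraries were made from RNA selected by oligo(dT), so these values cover polyadenylated copies. H2AC8 and H4C8 passed the minimum only through the treated libraries, and histone genes are close copies whose reads may be shared. H2BC9 was lower by 0.59 on the log2 scale, and this call was lost over 18 libraries (adjusted p 0.25).

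Of 38 proteasome subunit genes, 29 were lower and 2 higher, with a median log2 change of -0.41. Of 76 mitochondrial ribosomal protein genes, 49 were lower and 2 higher, with a median of -0.25. Of 83 cytosolic ribosomal protein genes, 4 were lower and 3 higher, with a median of 0.01. The shares of all genes tested were 33.2% lower and 24.3% higher. In the fit over 18 libraries, 22, 23 and 2 genes of these 3 families were called lower. The 3 tested aldo-keto reductase genes of the 1C group, which reduce steroids and prostaglandins, were all lower. AKR1C2 was at 5.26, 5.46 and 5.60 CPM with DMSO and 0.139, 0.0928 and 0.506 CPM with RMC-4550 (limma adjusted p 2.1e-08), and AKR1C2 and AKR1C3 passed the minimum only through the DMSO libraries.

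Single genes outside the naming rule that stood out after the values were seen included ENPP2, the lysophospholipase that makes lysophosphatidic acid, at 16.6, 19.8 and 20.2 CPM with DMSO and 88.6, 84.1 and 86.1 CPM with RMC-4550. IGF1, the growth factor gene, went from 6.37, 3.90 and 4.47 to 24.6, 24.2 and 22.3 CPM, and PTAFR, the receptor of platelet activating factor, from 6.37, 6.93 and 7.82 to 24.7, 25.4 and 25.5 CPM. INSRR, a receptor of the insulin receptor family, had 1 read in each DMSO library and 33 to 43 reads in the treated ones. It passed the minimum only through the treated libraries. The gene ENSG00000266976, for which no symbol was matched, rose from 535, 514 and 507 to 1776, 1708 and 1782 CPM (limma adjusted p 2.3e-14).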
